A study of Mus musculus with 24 samples.

Results

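Fragments of wild-type mouse ileum were exposed for 8 h to an extract from Asbt-/- donor mice, in the form named CME(-), or to the solvent DMSO, and their mRNA was counted. The members are the 3 usable Asbt-/- CME(-) libraries (replicates 1, 2 and 4) and the 3 usable DMSO libraries (replicates 2 to 4), 6 of the 24 libraries of the series, picked by sample title. Replicate 3 of the Asbt-/- CME(-) group was left out for poor mapping, and DMSO replicate 1 for another solvent concentration (0.5% against 0.6%), as the submitters' labels state. Asbt, encoded by Slc10a2, is the carrier that takes bile acids up from the gut lumen into ileal cells. The knockout belongs to the donor of the extract only: the treated fragments were wild-type in both groups, from male C57BL/6J mice starved for 4 h, and no library could serve as a check of the deletion. Ages are not given in the labels.

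The Asbt-/- CME(-) fragments of replicates 2 and 4 received 200 µM, and no concentration is given for replicate 1. The labels do not spell out CME. For replicate 2, and for the unused replicate 3, the treatment label has CAM(-) where the title has CME(-), and the title set the group. The CME(-) form was taken as the one that keeps its bile acids, and CME(+) as the depleted form, since depletion is mentioned among the treatments and of the 2 forms only CME(-) carries a concentration. Replicates 2 and 4 used extracts of different Asbt-/- donors. Each of these donors also gave the CME(+) extract of the same number. The labels leave unsaid whether replicate fragments are from different animals. The p-values thus reflect the spread among libraries, and this spread may be technical. For comparison, 3 other groups of 4 wild-type libraries each were used. They were treated with Asbt-/- CME(+), with CME(-) from wild-type (WT) donors, or with tauro-conjugated chenodeoxycholic acid (tCDCA). Replicates 2 to 4 of the WT CME(-) and tCDCA groups received 200 µM, and no concentration is given for replicate 1 of either. The usable WT CME(+) libraries (replicates 1, 3 and 4) entered the fit of all usable libraries and the first-run ranges of the other groups. No test against WT CME(+) is reported.

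Ileal enterocytes recover bile acids in a relay. Slc10a2 brings them in through the brush border, Fabp6 binds them in the cytosol, and the 2-part exporter of Slc51a and Slc51b passes them to the blood. Inside the cell bile acids activate the nuclear receptor FXR, which turns on Fgf15, a hormone that tells the liver to make less bile acid, and which lowers uptake through Slc10a2. The aim stated for the series was to study gene regulation by endogenous bile acids.

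The 3 Asbt-/- CME(-) libraries held 2.76 to 4.25 M counts and the 3 DMSO libraries 3.54 to 3.91 M. Column prefixes mark 2 runs: Asbt-/- CME(-) replicate 1 is from the first, and the other 5 libraries are from the second. Mitochondrial rRNA took 8.29% of counts in the first-run library, 24.6 and 27.41% in the second-run Asbt-/- CME(-) libraries, and 19.46 to 34.6% with DMSO. The DMSO group has no usable first-run library, so the run effect was estimated from the other groups, in 1 edgeR model of all 21 usable libraries. Levels below are in CPM, read counts brought to a common library total and scaled by TMM. A mean ± SD covers the second run alone, with n = 2 for Asbt-/- CME(-) and n = 3 for DMSO. Changes are log2 differences ± standard error (SE), Asbt-/- CME(-) minus DMSO. Genes with an adjusted p below 0.05 are named as called. Fabp6, which marks ileum, lay between 2980 and 8250 CPM in all 6 libraries.

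Of 13125 genes tested, 125 were called (0.952%): 50 were higher (0.381%) and 75 lower (0.571%) in Asbt-/- CME(-) fragments than in DMSO fragments. Of these, 22 rose and 48 fell at least 2-fold. The median log2 difference of all genes tested was -0.009. With library totals alone as scaling, 18 genes were called, 5 higher and 13 lower. In the second run, 124 of the 125 had no overlap between the groups, and 100 had none with the first-run library included. The genes were called on these same libraries, so this separation adds no support. Its share over all genes tested was not counted. The removed Asbt-/- CME(-) replicate 3 was no part of these calls. It lay on the called side of the DMSO mean in 122 of the 124 called genes that had a value in it. The genes were called on those same DMSO libraries, so part of this agreement is built in. Asbt-/- CME(-) replicate 1 and the unused DMSO replicate 1, both of the first run, differed in the called direction in 93 of these 124 genes. The Asbt-/- CME(-) library of this pair was part of the calls. No share over all genes was counted for these checks, nor for the later ones of gene lists with Asbt-/- CME(-) replicate 3. The count of called genes depended on single libraries: it was 10 without Asbt-/- CME(-) replicate 4, 50 without replicate 1, 19 without DMSO replicate 3 and 61 without DMSO replicate 4. With the second run alone 56 genes were called, 47 of them shared, and without a run term 3 were called, Fgf15 and Erich4 among them. Of the 45 called genes taken through all alternatives, 20 were also called in the second run alone, among them Fgf15, Acot5, C2cd4b, Vgf, Prmt1, Rpl28-ps1, Defa22, Defa30, Gcg, Elovl5, Erich4, Gda, Acy3, Slc13a2, Slc6a19, Slc7a9, Dgat1, Acsl5 and Stat2.

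**Figure D1:**
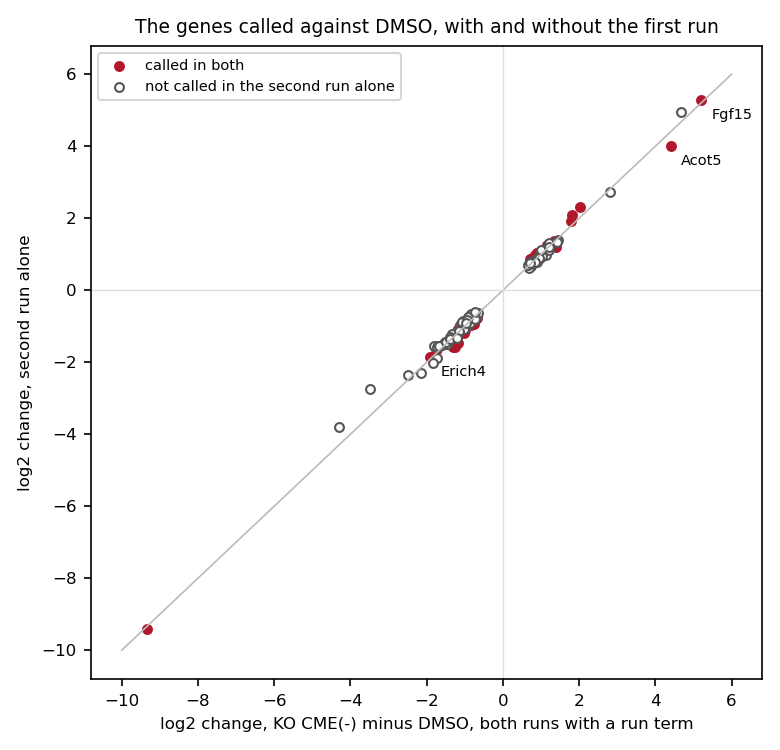
The 125 called genes, with the log2 difference between KO CME(-), the Asbt-/- extract, and DMSO in both runs on the x axis and in the second run alone on the y axis. Points are genes, filled where called in both fits (47 genes), and the line marks equal values. All points keep their sign, with Fgf15 at the top right.

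Fgf15 (ENSMUSG00000031073), the ileal hormone gene, was the gene with the smallest p. It stood at 318, 329 and 216 CPM in Asbt-/- CME(-) replicates 1, 2 and 4, against 7.95, 5.94 and 7.2 CPM in DMSO replicates 2, 3 and 4. Every Asbt-/- CME(-) library was far above every DMSO library. Fgf15 rose by 5.21 ± 0.39 log2 units, a 36.9-fold change (95% interval 4.42 to 6 log2 units; edgeR adjusted p = 8.99e-07). It was called in all 18 alternatives, as was 1 other gene, Erich4. The removed Asbt-/- CME(-) replicate 3 had 159 CPM, and the unused DMSO replicate 1 had 10.9 CPM.

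Slc51b (ENSMUSG00000053862), one chain of the bile acid exporter on the blood side, was at 625, 389 and 312 CPM with Asbt-/- CME(-), against 247, 171 and 196 CPM with DMSO. The groups did not overlap. The highest value came from the first run, where the other groups also lay high (403 to 661 CPM). The unused DMSO replicate 1 had 286 CPM. Slc51b rose by 0.88 ± 0.21 (1.85-fold, edgeR adjusted p = 0.03), and the call was lost in the second run alone (0.79, adjusted p = 0.116). Its partner chain Slc51a was at 409, 359 and 237 CPM with Asbt-/- CME(-), against 246, 182 and 256 CPM with DMSO. These ranges overlapped, and Slc51a was not called (0.64 ± 0.23, edgeR adjusted p = 0.201). Fabp6, the cytosolic binder, averaged 3760 ± 21 CPM with Asbt-/- CME(-) and 3750 ± 684 CPM with DMSO (0.07, edgeR adjusted p = 0.958).

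Slc10a2 (ENSMUSG00000023073), the uptake carrier itself, was at 96.6, 333 and 212 CPM with Asbt-/- CME(-), against 658, 405 and 540 CPM with DMSO. All 3 Asbt-/- CME(-) values lay below the lowest DMSO value. The lowest of them came from the first run, in which the other groups also had low levels (95 to 219 CPM). Slc10a2 fell by 1.12 ± 0.24 log2 units (2.17-fold lower, edgeR adjusted p = 0.0205). In the second run alone the difference was -0.96 (adjusted p = 0.0615). Of the 9 FXR target genes listed, 7 were tested, with 2 higher, 1 lower and a list median of 0.34. Abcc2 and Sqstm1 were not called, and Nr0b2 and Abcb4 were too low to test. None of the 9 tested bile acid receptor genes and partners was called, Nr1h4 (FXR) at -0.24 included. Nor was any of the 7 other bile acid and organic ion carriers, whose differences ran from -0.2 to 0.59.

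**Figure D2:**
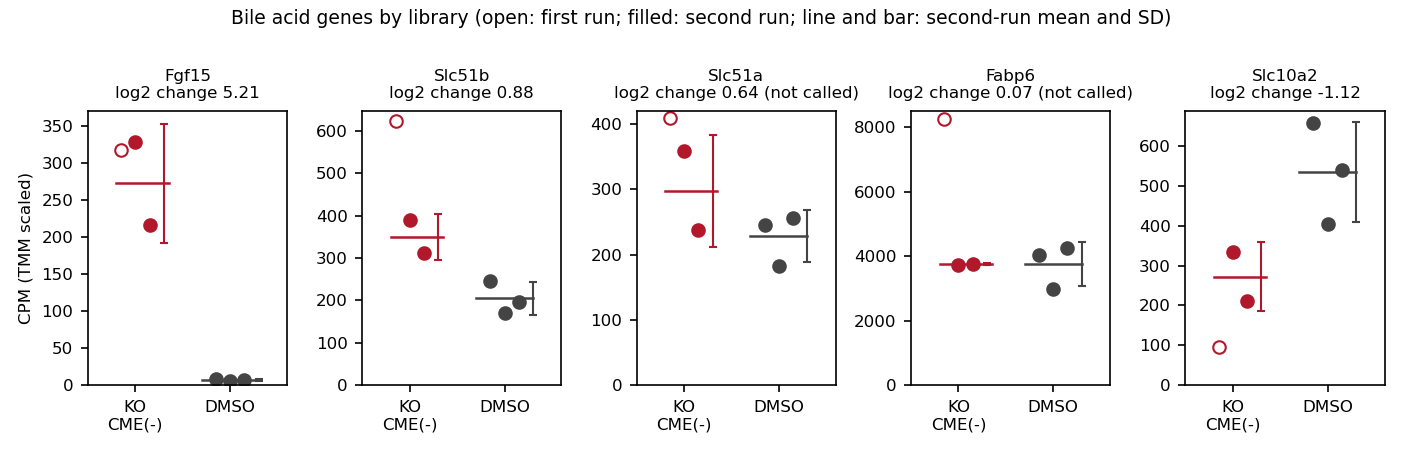
Levels of 5 bile acid genes in TMM-scaled CPM (y axis) in KO CME(-), the Asbt-/- extract, at the left and DMSO at the right of each panel. Open points are the first run, filled points the second, lines the second-run mean and bars its SD. Fgf15 lies at 216 to 329 CPM with KO CME(-) and 5.94 to 7.95 CPM with DMSO, Slc51b is higher, Slc10a2 lower, and Slc51a and Fabp6 overlap.

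The start regions of the 2 called carriers are shown because both moved, in opposite directions. The windows run from 250 bases before the start site to 50 after it, from RefSeq (GRCm38.p6). Capitals mark TGANTCA, a loose search string for the AP-1 element that allows any base (N) at its centre. Slc51b lies at chr9:65422724-65423023 and Slc10a2 at chr8:5105238-5105537, both on the minus strand.
Slc51b: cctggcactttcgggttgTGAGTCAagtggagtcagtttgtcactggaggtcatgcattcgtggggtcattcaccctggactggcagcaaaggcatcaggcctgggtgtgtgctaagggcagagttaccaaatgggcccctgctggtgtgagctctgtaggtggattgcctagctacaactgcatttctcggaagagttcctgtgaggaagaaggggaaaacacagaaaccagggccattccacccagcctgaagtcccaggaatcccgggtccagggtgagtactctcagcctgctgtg
Slc10a2: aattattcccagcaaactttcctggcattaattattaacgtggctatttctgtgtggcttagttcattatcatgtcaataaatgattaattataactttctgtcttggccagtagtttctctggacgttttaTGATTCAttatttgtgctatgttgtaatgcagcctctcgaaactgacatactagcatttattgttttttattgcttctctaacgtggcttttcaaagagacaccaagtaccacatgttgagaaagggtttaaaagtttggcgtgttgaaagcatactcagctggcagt
AP-1 is a factor of Fos and Jun proteins, and TGANTCA reads alike on both strands. Each window held it once, as TGAGTCA beginning 232 bases before the start of Slc51b and as TGATTCA beginning 118 bases before that of Slc10a2. It stood in a window of 2425 of 27025 genes (8.97%), in 6 of 29 matched genes called higher and in 9 of 64 matched genes called lower. The FXR inverted repeat core TCANTGA, also the same on both strands, was in 7.14% of all 32851 windows. It was in none of the windows of the 6 matched FXR targets, which do not include Fgf15, in those of Tgif1 and Stat4 among the genes called higher, and in those of Cyp3a13, Irf7, Oasl2, Slc5a4b and Stat2 among those called lower. With 1 side lengthened to GGTCA, as GGTCANTGA or its reverse complement, it was in 0.84% of all windows and in none of a called gene. The ATF4 and C/EBP composite element TGATGNAA, searched on both strands, was in 3.97% of all windows, and among the called genes in that of Slco2a1. A match is a string of letters and no measured site, and a window without one says nothing about the factor.

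Among the genes that fell, 2 carriers that absorb nutrients, Slc6a19 and Slc13a2, had the smallest p-values. The amino acid and peptide carriers had 5 of 14 tested members lower and none higher, with a median of -0.66. The lower members numbered 2 in the second run alone, 2 without Asbt-/- CME(-) replicate 1, 1 without replicate 4 and 2 without DMSO replicate 3. Slc6a19 (ENSMUSG00000021565), the main sodium-driven carrier of neutral amino acids at the brush border, was at 9.58, 85.7 and 71 CPM with Asbt-/- CME(-), against 184, 249 and 265 CPM with DMSO. It fell by 1.71 ± 0.23 log2 units (3.28-fold lower, edgeR adjusted p = 2.62e-05) and was called in 17 of 18 alternatives. First-run libraries had little Slc6a19 in every group (9.22 to 25.7 CPM in the other groups), and unused DMSO replicate 1 had 18.4 CPM. The second run alone gave a difference of -1.56 (adjusted p = 0.00114).

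Slc7a9 and Slc3a1 encode the light and heavy chain of 1 exchanger for cystine and basic amino acids. Slc7a9 was at 105, 110 and 85.9 CPM with Asbt-/- CME(-), against 184, 188 and 202 CPM with DMSO (-0.97 ± 0.18, edgeR adjusted p = 0.0028). Slc3a1 was at 66.7, 125 and 112 CPM with Asbt-/- CME(-), against 138, 213 and 214 CPM with DMSO (-0.83 ± 0.2, edgeR adjusted p = 0.03). Neither overlapped between the groups. Slc7a9 stayed called in the second run alone (adjusted p = 0.0204) and Slc3a1 did not (adjusted p = 0.157).

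Slc15a1, the carrier of di- and tripeptides, was at 27.6, 35.7 and 28.2 CPM with Asbt-/- CME(-), against 64.2, 121 and 79.8 CPM with DMSO. It fell 2.85-fold (edgeR adjusted p = 0.0093), and its adjusted p was 0.0983 in the second run alone. Slc43a2, a carrier of large neutral amino acids, was 2.21-fold lower (edgeR adjusted p = 0.0458), at 18.6, 72.3 and 39.6 CPM with Asbt-/- CME(-) against 154, 115 and 106 CPM with DMSO. The groups did not overlap for either gene. Slc43a2 was low in every first-run group (9.22 to 35.4 CPM in the others), and the unused DMSO replicate 1, at 13.4 CPM, lay below Asbt-/- CME(-) replicate 1. The Slc43a2 call was lost in the second run alone (adjusted p = 0.077). The carriers with differences above 0 were Slc7a5 (0.76), Slc1a5 (0.61) and Slc3a2 (0.26), none of them called.

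Of 15 tested carriers of citrate, phosphate and other ions 3 fell, none rose and the median was -0.36. In the second run alone, and without Asbt-/- CME(-) replicate 1, replicate 4 or DMSO replicate 3, 1 was called. Slc13a2 (ENSMUSG00000001095), which carries citrate and other dicarboxylates, was at 23.8, 96.9 and 45.5 CPM with Asbt-/- CME(-), against 191, 197 and 278 CPM with DMSO. It was 3.31-fold lower (-1.73 ± 0.24, edgeR adjusted p = 9.82e-05), also in the second run alone (adjusted p = 0.00114). First-run libraries of the other groups were low too, at 24.4 to 41.2 CPM, as was the unused DMSO replicate 1 at 27.8 CPM. The phosphate carrier Slc34a2 was at 4.69, 9.99 and 6.27 CPM with Asbt-/- CME(-), against 25.4, 24.8 and 23.5 CPM with DMSO (3.32-fold lower, edgeR adjusted p = 0.0301), and at 5.5 to 8.06 CPM in the other first-run groups. The sodium-proton exchanger Slc9a3 was low everywhere, at 0.195, 1.15 and 0.392 CPM with Asbt-/- CME(-) against 2.14, 10.8 and 3.6 CPM with DMSO (edgeR adjusted p = 0.0412). Slc34a2 and Slc9a3 lost their calls in the second run alone (adjusted p = 0.12 and 0.246). Among sugar carriers and their enzymes 1 of 9 fell and none rose, with a median of -0.8. That gene, Slc5a4b, named after its value was seen, had 0.195, 3.84 and 3.53 CPM with Asbt-/- CME(-), against 12.5, 32.2 and 13 CPM with DMSO (edgeR adjusted p = 0.0454).

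**Figure D3:**
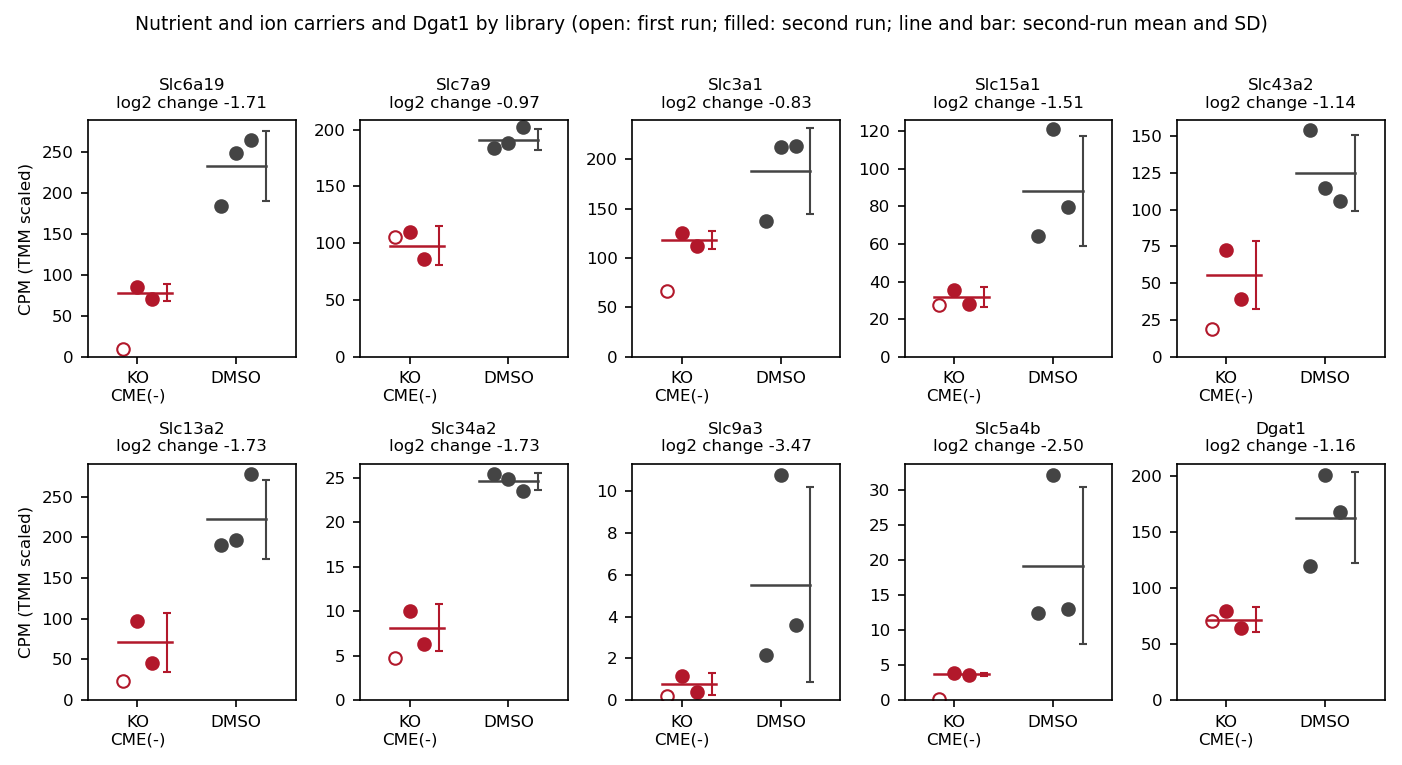
Levels of 9 nutrient and ion carriers and of Dgat1 in TMM-scaled CPM (y axis), with KO CME(-), the Asbt-/- extract, at the left and DMSO at the right of each panel. Open points are the first run, filled points the second, lines the second-run mean and bars its SD. In none of the 10 panels do the 3 KO CME(-) points reach the lowest DMSO point.

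Genes that rebuild dietary fat had 2 of 18 tested members lower, none higher and a median of -0.96. Dgat1, which makes the last step of triglyceride synthesis, was at 70.6, 79.6 and 64.3 CPM with Asbt-/- CME(-), against 120, 201 and 168 CPM with DMSO (-1.16 ± 0.2, edgeR adjusted p = 0.00169). Acsl5, which couples fatty acids to coenzyme A, was at 251, 223 and 204 CPM with Asbt-/- CME(-), against 444, 412 and 358 CPM with DMSO (-0.9 ± 0.18, edgeR adjusted p = 0.00876). Both stayed called in the second run alone (adjusted p = 0.0233 and 0.0327). Apoa4 (-2.65), Apoc3 (-1.98), Fabp2 (-1.82) and Fabp1 (-1.58) had larger differences but wide errors, and none was called.

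Differences in broader enterocyte genes lay below 0 throughout. All 18 tested brush border hydrolases did so, with a median of -0.78, and 1 was called: Enpep, named after its value was seen, the membrane enzyme that cuts acidic residues from peptides, at 135, 179 and 186 CPM with Asbt-/- CME(-) against 323, 261 and 321 CPM with DMSO (edgeR adjusted p = 0.0318). All 18 enterocyte markers did so too, with a median of -0.88 and none called. DESeq2 called 4 of these markers lower. Their summed level was 4390, 6610 and 5500 CPM with Asbt-/- CME(-), against 9170, 15700 and 10400 CPM with DMSO. In these whole fragments, fewer cells of a type and less RNA per cell cannot be told apart. The part of this lower enterocyte level in the fall of the carriers was not tested. The removed Asbt-/- CME(-) replicate 3 lay below the DMSO mean in all 18 of these markers.

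No marker of the other tissue cells in the fragments was called. Of 13 smooth muscle markers 12 had differences above 0 (median 0.16), and of 13 fibroblast markers 10 lay below 0 (median -0.34). The 7 tested adipocyte and mesothelial markers had 5 below 0 and a median of -0.95, and all 5 tested erythrocyte and pancreas markers lay below 0 (median -0.24). Medians were -0.01 for 12 endothelial, -0.18 for 14 myeloid, -0.09 for 13 enteric neuron and glia, -0.2 for 9 T and NK cell and 0.42 for 6 B and plasma cell markers. Among 14 goblet cell markers 1 was called higher, with a list median of -0.01. It was the chemokine Ccl6, also named after its value was seen, at 168, 273 and 292 CPM with Asbt-/- CME(-), against 156, 159 and 157 CPM with DMSO. The unused first-run DMSO replicate 1 had 243 CPM of Ccl6, above the 168 CPM of Asbt-/- CME(-) replicate 1.

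Paneth cells secrete antimicrobial peptides at the crypt base. Of 14 tested products 3 rose, none fell and the median was 0.78. None of the 14 was called without Asbt-/- CME(-) replicate 1, without replicate 4 or without DMSO replicate 3. The defensin Defa22 was at 3900, 3840 and 6260 CPM with Asbt-/- CME(-), against 1430, 2490 and 2440 CPM with DMSO (2.24-fold, edgeR adjusted p = 0.0497). Defa30 was at 4880, 4510 and 7490 CPM with Asbt-/- CME(-), against 3510, 3030 and 3070 CPM with DMSO (1.85-fold, edgeR adjusted p = 0.0299). Neither overlapped between the groups, and both stayed called in the second run alone (adjusted p = 0.0204 for Defa22 and 0.0476 for Defa30). In the first run the order was the opposite: Asbt-/- CME(-) replicate 1 lay below the unused DMSO replicate 1, which had 5350 CPM of Defa22 and 6400 CPM of Defa30. Defa5 was at 113, 154 and 239 CPM with Asbt-/- CME(-), against 72.4, 126 and 110 CPM with DMSO (2.05-fold, edgeR adjusted p = 0.0279). Its ranges overlapped through the first-run library. Defensin genes are near copies of each other, so reads may have been split between them. The summed Paneth level was 37400, 45000 and 70000 CPM with Asbt-/- CME(-), against 27500, 33700 and 32500 CPM with DMSO, so replicate 4 was the highest library. Asbt-/- CME(-) replicate 3, not used, lay above the DMSO mean in 11 of the 14.

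Of 18 tested enteroendocrine genes 2 rose, with a list median of 0.22. Gcg, the glucagon gene from which L cells make GLP-1, was at 70.2, 98.8 and 139 CPM with Asbt-/- CME(-), against 65.7, 65 and 49.3 CPM with DMSO (1.9-fold, edgeR adjusted p = 0.0412). Vgf, a peptide precursor of secretory granules, was at 4.1, 16.1 and 12.2 CPM with Asbt-/- CME(-), against 3.97, 4.9 and 2.49 CPM with DMSO (3.48-fold, edgeR adjusted p = 0.0412). The first-run library lay within or close to the range of the used DMSO libraries in both genes. The unused DMSO replicate 1, also of the first run, had 89.3 CPM of Gcg and 4.96 CPM of Vgf. Both values were above Asbt-/- CME(-) replicate 1. Pyy (-0.25), Chga (-0.01) and Cck (0.57) were not called.

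**Figure D4:**
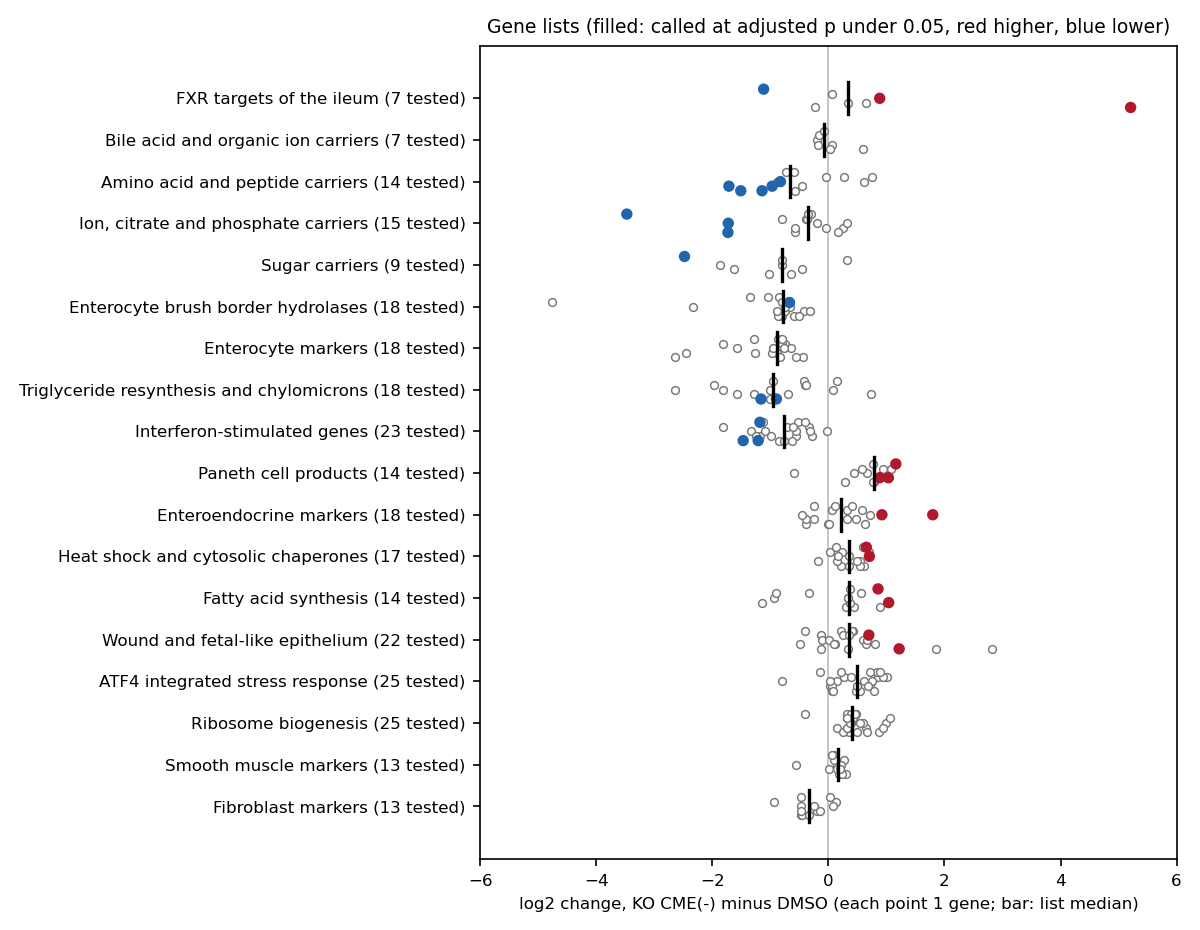
The log2 difference, KO CME(-) (the Asbt-/- extract) minus DMSO, of every tested gene (points) in 18 gene lists (rows), with the list median as a black bar. Filled points were called, red higher and blue lower. Medians lie below 0 for the carriers, enterocyte, triglyceride and interferon lists and above 0 for the Paneth (0.78) and ATF4 (0.5) lists.

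Interferon-stimulated genes had 3 of 23 tested members lower and none higher, and all 23 differences lay below 0, with a median of -0.76. Irf7, a transcription factor that amplifies interferon production, was at 15.4, 18.1 and 17.3 CPM with Asbt-/- CME(-), against 33.6, 45.1 and 44.6 CPM with DMSO (2.31-fold lower, edgeR adjusted p = 0.0154). Oasl2, related to the antiviral oligoadenylate synthetases, was at 27.8, 15.8 and 12.2 CPM with Asbt-/- CME(-), against 21.4, 58 and 40.7 CPM with DMSO (edgeR adjusted p = 0.0117). Stat2, a carrier of the interferon signal to the nucleus, was at 25, 13.1 and 9.02 CPM with Asbt-/- CME(-), against 26.6, 44.1 and 22.7 CPM with DMSO (edgeR adjusted p = 0.0473). The groups were apart for Irf7 and overlapped for the other 2. Ddx60, a helicase of antiviral defence that stands outside the list, was 3.32-fold lower (edgeR adjusted p = 0.0251), at 8.6, 12.7 and 7.06 CPM with Asbt-/- CME(-) against 37, 53.9 and 19.7 CPM with DMSO. Ddx60 was low in the other first-run groups too, at 7.49 to 14.4 CPM. The unused DMSO replicate 1, at 7.11 CPM, lay below Asbt-/- CME(-) replicate 1. The Ddx60 call was lost in the second run alone (edgeR adjusted p = 0.0615) and without DMSO replicate 3 (edgeR adjusted p = 0.196). The summed level of the list was 897, 524 and 613 CPM with Asbt-/- CME(-), against 573, 1300 and 689 CPM with DMSO. DMSO replicate 3 was thus the highest library, and without it none of the 23 genes was called. In the second run alone Stat2 was called. The unused Asbt-/- CME(-) replicate 3 lay above the DMSO mean in 11 of the 23 and below it in 12.

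Chaperones and lipid synthesis genes were among those that rose. Of 17 heat shock and chaperone genes 2 were higher, with a median of 0.36. Hspa8, the constitutive Hsp70, was at 109, 130 and 170 CPM with Asbt-/- CME(-), against 107, 68.9 and 89.5 CPM with DMSO (1.63-fold, edgeR adjusted p = 0.0324). Hsp90ab1 was at 737, 946 and 964 CPM with Asbt-/- CME(-), against 561, 536 and 680 CPM with DMSO (1.57-fold, edgeR adjusted p = 0.0412). The groups were apart in both genes. Both calls were lost in the second run alone (edgeR adjusted p = 0.0619 for Hspa8 and 0.077 for Hsp90ab1) and without DMSO replicate 3. The unused DMSO replicate 1 had 120 CPM of Hspa8, above Asbt-/- CME(-) replicate 1, and 625 CPM of Hsp90ab1, below it. Of 14 fatty acid synthesis genes 2 were higher, with a median of 0.36. They were the elongase Elovl5 (2.06-fold, edgeR adjusted p = 0.0154) and the desaturase Scd2 (1.81-fold, edgeR adjusted p = 0.0454). Second-run values of Elovl5 were 62.3 and 67.8 CPM with Asbt-/- CME(-) against 29 to 37.6 CPM with DMSO. The Scd2 call was lost in the second run alone (edgeR adjusted p = 0.115). Asbt-/- CME(-) replicate 1, of the first run, lay below the range of the used DMSO libraries in both genes, at 27.2 CPM of Elovl5 and 82.5 CPM of Scd2. The other first-run groups were at 18.2 to 25.8 CPM of Elovl5 and 62.7 to 94.8 CPM of Scd2. The unused DMSO replicate 1 had 17.5 and 57.4 CPM, below Asbt-/- CME(-) replicate 1. None of 25 cholesterol synthesis genes was called (median 0.28).

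Plaur, the receptor that holds urokinase at the cell surface, was at 71, 14.2 and 31.8 CPM with Asbt-/- CME(-), against 12.5, 8.74 and 10.8 CPM with DMSO (2.33-fold, edgeR adjusted p = 0.0251). Plat, the tissue plasminogen activator, was at 192, 146 and 105 CPM with Asbt-/- CME(-), against 72.8, 82.5 and 67.3 CPM with DMSO (1.7-fold, edgeR adjusted p = 0.0301). They were the 2 members called of 17 plasminogen activators and matrix proteases, a list with a median of 0.03. Hbegf, a growth factor of wounded epithelium, was at 251, 271 and 260 CPM with Asbt-/- CME(-), against 153, 169 and 200 CPM with DMSO (1.62-fold, edgeR adjusted p = 0.041). All 3 genes were higher in every Asbt-/- CME(-) library than in any DMSO library, and all 3 lost the call in the second run alone. The highest Plaur and Plat values came from the first run, where the other groups also lay high (41.9 to 96.3 CPM of Plaur and 149 to 203 CPM of Plat). The unused DMSO replicate 1 had 46.8 CPM of Plaur and 144 CPM of Plat. Hbegf and Plaur were the called 2 of 22 wound and fetal-like epithelium genes (median 0.35).

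Of 25 tested ATF4 targets, the genes of the integrated stress response, none was called by edgeR. The differences were above 0 for 23 and below 0 for Ddit3 (-0.8) and Trib3 (-0.14), with a median of 0.5. Mthfd2, a mitochondrial folate enzyme, came nearest at 0.79 (edgeR adjusted p = 0.0599), and Ddit4 (0.62), Shmt2 (0.83) and Chac1 (0.85) followed without a call. DESeq2 called Mthfd2 (adjusted p = 0.0239) and Nupr1 (adjusted p = 0.0467). The unused Asbt-/- CME(-) replicate 3 was above the DMSO mean in 15 of the 25. None of 25 ribosome biogenesis genes was called either, with 24 differences above 0 and a median of 0.4.

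The genes with the largest rises outside these lists had mixed roles. Acot5, a peroxisomal acyl-CoA thioesterase, was at 7.43, 9.61 and 11 CPM with Asbt-/- CME(-), against 1.22, 0 and 0.554 CPM with DMSO (edgeR adjusted p = 0.0261). C2cd4b, a nuclear protein gene, was at 5.67, 26.9 and 61.9 CPM with Asbt-/- CME(-), against 7.34, 12.6 and 11.6 CPM with DMSO (3.49-fold, edgeR adjusted p = 0.01). Its first-run library lay below all 3 used DMSO libraries, which are of the second run. In the first run the other groups were at 5.95 to 11 CPM of C2cd4b, and the unused DMSO replicate 1 was at 3.97 CPM. Prmt1, the main arginine methyltransferase, was at 36, 40.7 and 61.2 CPM with Asbt-/- CME(-), against 27.5, 15.4 and 23.3 CPM with DMSO (2.61-fold, edgeR adjusted p = 0.0103), and held in the second run alone (adjusted p = 0.0204). Rnmt, which methylates the mRNA cap, was 2.73-fold higher, the mitochondrial co-chaperone Dnaja3 2.66-fold, Utp4 of the ribosome assembly machinery 2.31-fold and the actin gene Actg1 2.3-fold. Edges of these ranges were apart for all 4, and none of the 4 was called in the second run alone. The unused first-run DMSO replicate 1 had 21.3 CPM of Rnmt, 14.1 of Dnaja3, 34.7 of Utp4 and 33.9 of Actg1. Asbt-/- CME(-) replicate 1 was at 23.7, 17.4, 38.7 and 35.6 CPM in the same order, so the first-run differences were small. Rpl28-ps1, a pseudogene copy of a ribosomal protein gene, was 2.52-fold higher, and its reads may belong to its parent or to other copies. The unused DMSO replicate 1 had 92.8 CPM of Rpl28-ps1, above the 87.2 CPM of Asbt-/- CME(-) replicate 1.

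Among the largest falls outside these lists, Erich4 was at 12.5, 14.2 and 9.02 CPM with Asbt-/- CME(-), against 38.8, 40.2 and 48.8 CPM with DMSO. It was 3.74-fold lower (-1.9 ± 0.29, edgeR adjusted p = 0.000358) and was called under all 18 alternatives. Gda, the guanine deaminase of purine breakdown, was at 112, 72.3 and 67.4 CPM with Asbt-/- CME(-), against 208, 297 and 259 CPM with DMSO (3.63-fold lower, edgeR adjusted p = 0.00169). Acy3, an aminoacylase, was at 5.08, 29.2 and 16.9 CPM with Asbt-/- CME(-), against 67.2, 93.4 and 54.6 CPM with DMSO (3.36-fold lower, edgeR adjusted p = 0.0126). The groups were apart in all 3 genes. Acy3 was low in the other first-run groups too, at 8.18 to 11.5 CPM. Clec2e, a lectin-like gene, was at 5.08, 8.07 and 3.92 CPM with Asbt-/- CME(-), against 24.1, 24.8 and 24.9 CPM with DMSO (3.53-fold lower, edgeR adjusted p = 0.0421). The Clec2e call was lost in the second run alone (edgeR adjusted p = 0.0594). Clec2e was low in the other first-run groups too, at 1.93 to 10.1 CPM, and in the unused DMSO replicate 1, at 6.12 CPM. Apol7a (3.51-fold lower), the sphingomyelinase-like Smpdl3b (3.21-fold lower) and the Hsp70 relative Hspa12a (3.05-fold lower) were called too, and lost the call in the second run alone.

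Direct tests against the other treatments asked where Asbt-/- CME(-) differed from them. Against Asbt-/- CME(+), the form taken as depleted, 3 of 13125 genes were called (0.0229%). Fgf15 was at 318 CPM in the first run and 273 ± 80.5 CPM in the second with Asbt-/- CME(-), against 59 CPM and 68.6 ± 18.2 CPM (n = 3) with Asbt-/- CME(+). It was 2.06 ± 0.29 log2 units higher (4.19-fold, edgeR adjusted p = 0.00567). Defa5 was 1.37 ± 0.22 higher (edgeR adjusted p = 0.00567), at 113 CPM and 197 ± 60.1 CPM with Asbt-/- CME(-), against 25.8 CPM and 89.7 ± 6.35 CPM with Asbt-/- CME(+). Car4, a membrane carbonic anhydrase, was 1.12 ± 0.21 lower (edgeR adjusted p = 0.0325), with second-run means of 57.5 CPM with Asbt-/- CME(-) and 147 CPM with Asbt-/- CME(+). Replicates 2 and 4 of both forms share an extract donor. With the donor as a block in a fit of these 2 groups, all 3 calls were kept and 19 genes were called. In the second run alone 2 genes were called, and of the 3 only Fgf15 was among them (Defa5 and Car4 at an edgeR adjusted p of 0.0545 each). With the replicate number as a block in the model of all groups only Defa5 of the 3 was called, and Fgf15 and Car4 were not. The carriers did not differ by a call: Slc6a19 was at -0.68 (95% interval -1.1 to -0.26, edgeR adjusted p = 0.313), Slc13a2 at -0.3 (-0.74 to 0.15, adjusted p = 0.838), Slc10a2 at -0.53 (-0.97 to -0.09, adjusted p = 0.605) and Slc51b at 0.25 (-0.14 to 0.63, adjusted p = 0.854).

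Against CME(-) from WT donors no gene was called by edgeR (0 of 13125, 0%), 531 had an unadjusted p under 0.05, and DESeq2 called 0. Fgf15 was at 318 CPM in the first run and 273 ± 80.5 CPM in the second with Asbt-/- CME(-), against 312 CPM and 135 ± 35.7 CPM (n = 3) with WT CME(-). The difference was 0.7 (95% interval 0.14 to 1.26, edgeR adjusted p = 0.997), so neither equality nor a difference was shown. The gene with the smallest p was Erich4, at -1.18 (-1.74 to -0.62, edgeR adjusted p = 0.791). Ackr1 (1.47), Eapp (-0.8), Agap3 (1.29) and Lmbr1l (-1.21) followed, each with an edgeR adjusted p of 0.997.

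Against tCDCA, a single bile acid, 15 genes were called (0.114%), 9 higher and 6 lower in Asbt-/- CME(-) fragments. The clock output factor Dbp was 1.77 ± 0.29 log2 units higher (edgeR adjusted p = 0.00353), with second-run levels of 40.5 ± 5.75 CPM with Asbt-/- CME(-) and 11.7 ± 3.52 CPM (n = 3) with tCDCA. Skeletal actin Acta1 was 1.83 ± 0.31 higher (edgeR adjusted p = 0.00683), at 29.5 ± 1.51 CPM with Asbt-/- CME(-) and 6.95 ± 3.72 CPM with tCDCA. The cytokine Lif was 1.62 ± 0.32 lower (edgeR adjusted p = 0.0282), at 8.94 ± 2.32 CPM with Asbt-/- CME(-) and 44.2 ± 16.3 CPM with tCDCA. The urate carrier Slc2a9 (1.45), Prr15 (1.25) and the prolactin receptor Prlr (1.19) were higher. For these 6 genes the same second-run level with DMSO was 30.5 CPM for Dbp, 36.4 CPM for Acta1, 7.9 CPM for Lif, 21.1 CPM for Slc2a9, 69.4 CPM for Prr15 and 66.9 CPM for Prlr. Fgf15 did not differ by a call from tCDCA (0.23, 95% interval -0.34 to 0.79, edgeR adjusted p = 0.909), nor did Slc10a2 (0.66, 0.22 to 1.1, adjusted p = 0.313). All 4 comparisons share the Asbt-/- CME(-) libraries. The count of 15 rested on single libraries: it was 0 without Asbt-/- CME(-) replicate 2, 58 without replicate 1 and 54 without tCDCA replicate 1.

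**Figure D5:**
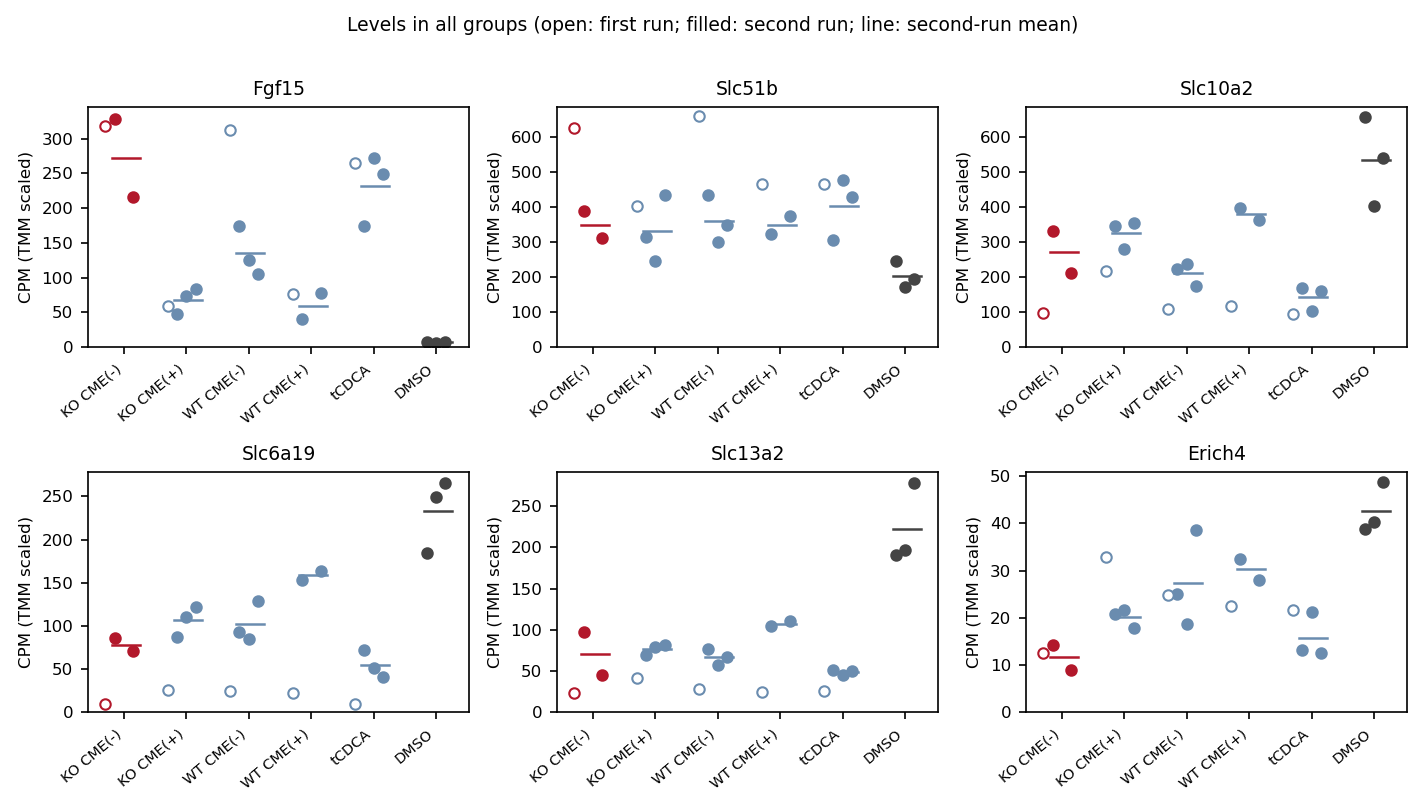
Levels of 6 genes in TMM-scaled CPM (y axis) in the 21 used libraries, by group from KO CME(-), the Asbt-/- extract, at the left to DMSO at the right. Open points are the first run, filled points the second and lines the second-run mean. Fgf15 is lowest with DMSO (5.94 to 7.95 CPM), and Slc6a19, Slc13a2 and Erich4 have their highest values there.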

How the data were processed

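Fragments of mouse ileum were profiled with QuantSeq, which reads each mRNA near its 3' end. The authors deposited 1 matrix of unnormalized counts covering all 24 libraries. The submitters' processing notes list FastQC, cutadapt, HISAT2 and Picard, and the build GRCm39. How reads were assigned to genes, and whether strand was used, is not given in the sources used here, so overlapping genes, antisense pairs and near copies are uncertain. Of 57126 identifiers, 51884 had a symbol in GENCODE M21, an annotation of an older build, and these held 88.4% of the counts.

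The 21 usable libraries were fitted together in edgeR 4.0.16 (R 4.3.3), after filterByExpr by group (minimum count 10, minimum total 15) and TMM scaling. The robust quasi-likelihood model had terms for group and run. Tests are two-sided, with Benjamini-Hochberg adjustment over 13125 genes. The common biological coefficient of variation was 0.266, with 14 residual degrees of freedom. On simulated counts of 12814 genes, 29 of 100 genes changed 2-fold and 77 of 100 changed 4-fold were recovered, with 2 false calls. Alternatives were DESeq2 1.42.0, other scalings, filters, run terms and library sets, and a replicate block. All pairs of replicates differed by more than sampling noise: chi-square per degree of freedom was 7.95 or more. By the labels, same-numbered Asbt-/- CME(-) and Asbt-/- CME(+) libraries of the second run share an extract donor, although they did not deviate together (r = 0 and -0.013). The donor was therefore also fitted as a block.

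The members, gene lists and tests were chosen with earlier results of these data known, so lists are described by counts and medians. The text names 6 bile acid genes, then the called genes of largest change (up to 12 per direction) having a non-provisional symbol and an average log2 CPM of 3 or above. It also names up to 5 called members of each list with more than 1 such member, members of the bile acid and ATF4 lists, and up to 6 called genes in each direct comparison, or the 5 of smallest p where none was called. One called gene is not reported here.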

Additional observations from a re-analysis of the deposited data

Results flagged for a closer look

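Direct tests between treatments found genes whose response to Asbt-/- CME(-) differed from that to another treatment. Against Asbt-/- CME(+), on the log2 scale, Fgf15 differed by 2.06 (edgeR adjusted p = 0.00567), Defa5 by 1.37 (edgeR adjusted p = 0.00567) and Car4 by -1.12 (edgeR adjusted p = 0.0325). Against tCDCA, Acta1 differed by 1.83 (edgeR adjusted p = 0.00683), Dbp by 1.77 (0.00353), Lif by -1.62 (0.0282), Slc2a9 by 1.45 (0.0393), Prr15 by 1.25 (0.0289) and Prlr by 1.19 (0.0156).

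A signal also lay in a library outside the main comparisons, which entered only alternative settings and side-by-side values. Asbt-/- CME(-) replicate 3, left out for poor mapping, had Fgf15 at 159 CPM, against 5.94 to 7.95 CPM in the used DMSO libraries.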

How the results depend on the processing

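The count of 125 genes against DMSO was within 1.5 times under RLE factors, a filter of 10 counts in every library of a group, and removal of mitochondrial rRNA. It was 297 with DESeq2, 258 without a count filter, 81 with the replicate block, 63 with the compared groups alone, 56 in the second run alone, 22 with DMSO replicate 1 added, 18 without scaling factors, 9 with all libraries and 3 without a run term. Leaving out 1 library gave 10 to 170. Chosen after seeing the data, a fit without tCDCA replicate 3 gave 207, and the second run with Asbt-/- CME(-) replicate 3 gave 74. Of the 45 called genes taken through these settings, none with a value changed sign. Fabp6, not called, was at -0.08 without DMSO replicate 3 and at most 0.17 otherwise among the left-out libraries. Same-numbered Asbt-/- CME(-) and DMSO libraries did not deviate together (r = -0.033 and 0.001). Whether the numbers pair them stays undecided. Asbt-/- CME(-) and Asbt-/- CME(+) libraries that share an extract donor also gave r = 0 and -0.013 in this check.

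Against Asbt-/- CME(+) the 3 calls became 75 with the compared groups alone, 19 with the donor as replicate block in that fit, 59 without a count filter, 56 with DESeq2, and 1 with all libraries, with DMSO replicate 1 added, without a run term and with the replicate block in the model of all groups. There were 0 calls without scaling factors, where the median of all genes shifted to -0.183 (0.103 against WT CME(-)). Left-out libraries gave 1 to 10, and the 2 added fits gave 11 (no tCDCA replicate 3) and 12 (second run with replicate 3). Against WT CME(-) the 0 calls became 2 with the compared groups alone, 6 with the replicate block in that fit and 4 without a count filter, and left-out libraries gave 0 to 1. Against tCDCA the 15 calls became 81 with DESeq2, 80 in the second run alone, 176 in it with replicate 3, 78 without a count filter, 4 with the replicate block, 2 with the compared groups alone, with or without the block, and 0 without a run term or scaling factors. Left-out libraries gave 0 to 58. The cause of these shifts was not tested.

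Depth limits genes of a few CPM: the compared libraries held 2.76 to 4.25 M counts. With 3 libraries a group, of which 1 Asbt-/- CME(-) library is from another run, single libraries moved the counts as given above.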

Other observations

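Further called genes, picked after their values were seen, are given here as values, with no test of a shared theme. Espn, an actin bundler of microvilli, was at 20.1, 51.5 and 38.4 CPM with Asbt-/- CME(-), against 75.8, 95.8 and 98.6 CPM with DMSO (edgeR adjusted p = 0.00291). Slc9a3r1, a scaffold protein gene of the brush border, was at 110, 190 and 140 CPM with Asbt-/- CME(-), against 197, 366 and 330 CPM with DMSO (edgeR adjusted p = 0.0251). Slc6a8, the creatine carrier, was at 34.4, 154 and 144 CPM with Asbt-/- CME(-), against 323, 322 and 379 CPM with DMSO (edgeR adjusted p = 0.0245). The cytochrome gene Cyp3a13 was at 163, 75.3 and 82.7 CPM with Asbt-/- CME(-), against 177, 278 and 170 CPM with DMSO (edgeR adjusted p = 0.0154). The groups did not overlap in these 4 genes, and only Espn and Slc6a8 of the 4 were also called in the second run alone (adjusted p = 0.0388 and 0.0128). Both were low in the other first-run groups too, at 24.4 to 39.1 CPM for Espn and 22.4 to 40.8 CPM for Slc6a8. The unused DMSO replicate 1 had 28 CPM of Espn and 34.1 CPM of Slc6a8, against 20.1 and 34.4 CPM in Asbt-/- CME(-) replicate 1.

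The next 4 genes, picked in the same way, rose. Rpl4, a ribosomal protein gene, was at 314, 348 and 471 CPM with Asbt-/- CME(-), against 215, 192 and 232 CPM with DMSO (edgeR adjusted p = 0.0199). Eef1b2, an elongation factor subunit, was at 350, 320 and 337 CPM with Asbt-/- CME(-), against 200, 170 and 237 CPM with DMSO (edgeR adjusted p = 0.0246). Kars, the lysyl-tRNA synthetase, was at 74.7, 73.4 and 135 CPM with Asbt-/- CME(-), against 54.1, 50.7 and 55.1 CPM with DMSO (edgeR adjusted p = 0.0412). Adm, the vessel peptide adrenomedullin, was at 137, 94.9 and 171 CPM with Asbt-/- CME(-), against 42.5, 53.5 and 83.9 CPM with DMSO (edgeR adjusted p = 0.0154). It was the called 1 of 25 hypoxia and glycolysis genes, whose median was 0.09. Of these 4 genes, Rpl4 and Kars were also called in the second run alone (adjusted p = 0.0313 and 0.0233). The unused DMSO replicate 1 had 320 CPM of Rpl4, slightly above Asbt-/- CME(-) replicate 1.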
